A study of Mus musculus with 12 samples.

Results

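CaMK and calcineurin signaling was followed here through 10 mouse genes: Camk1, Camk2a, Camk2b, Camk2d, Camk2g, Ppp3ca, Ppp3cb, Rcan1, Nfatc1 and Nfatc3. Each was taken from the array annotation as the transcript cluster (the set of probes that measures a gene) whose single gene symbol is that name, and each had exactly 1 such cluster among the 28944 on the array. The array holds 19938 genes with a cluster of a single symbol. This rule used no measured value, although the genes were chosen with earlier results of these data known.

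The muscle was gastrocnemius, 1 array per mouse, from 12 male germ-free ICR mice (labelled strain Tsl;ICR[GF], age 11 weeks). The groups differed in the feces they were gavaged with: RT mice (n = 6) received those of treadmill-trained ICR donors, and RS mice (n = 6) those of sedentary ICR donors. Both groups were fed a high-fat diet, were gavaged 2 times per week, and were sampled 1 week after the start of gavage, following a fast of 4 h. Mice were housed together and received identical fecal samples, so cage and fecal pool cannot be told apart from donor training, and p-values measure only the spread between these mice.

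When a muscle fiber contracts, calcium released into the cytosol binds calmodulin, which switches on CaM kinases and the phosphatase calcineurin. CaMKII is built from α, β, δ and γ subunits (Camk2a, Camk2b, Camk2d, Camk2g), whereas CaMKI (Camk1) acts as a single chain that an upstream kinase activates. Calcineurin, with a catalytic A subunit encoded by Ppp3ca or Ppp3cb in most tissues, dephosphorylates NFAT factors (Nfatc1, Nfatc3), which then enter the nucleus, and its inhibitor Rcan1 is itself induced by this route. In skeletal muscle these signals are known for linking contraction to slow-fiber genes and to mitochondrial and glucose transport genes. Transcript levels, the only quantity analysed here, do not give the phosphorylation or the activity of these proteins.

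Promoters are shown for Rcan1 and for the called genes whose windows were used, which leaves out Nfatc1. The internal start site of Rcan1 is the textbook example of a promoter that calcineurin and NFAT drive. Sequences of the 250 bases before a start site are from RefSeq (GRCm38.p6), 5′ to 3′ on the strand of the gene. Windows of 6 of the 10 genes were used, 8 in all. Entries were not taken from every chromosome, so a gene without a window here can still have an entry. Capitals mark GGAAA, the core that NFAT binds, or its reverse complement TTTCC, and TGACGTCA, the full cAMP response element that CREB binds. Both motifs were searched on both strands and shared 0 bases. The windows are Rcan1 at the internal start (chr16:92400079-92400328, minus strand) and the upstream start (chr16:92466170-92466419, minus strand), Camk2d (chr3:126596701-126596950, plus strand), Camk1 (chr6:113343923-113344172, minus strand), and Nfatc3 at a first (chr8:106058568-106058817, plus strand) and a second start (chr8:106059340-106059589, plus strand).
Rcan1 internal start: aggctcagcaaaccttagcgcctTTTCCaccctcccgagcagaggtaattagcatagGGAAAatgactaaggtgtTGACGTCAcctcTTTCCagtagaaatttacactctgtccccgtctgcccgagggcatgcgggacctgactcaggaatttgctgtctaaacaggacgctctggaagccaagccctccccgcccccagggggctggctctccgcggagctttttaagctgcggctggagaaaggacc
Rcan1 upstream start: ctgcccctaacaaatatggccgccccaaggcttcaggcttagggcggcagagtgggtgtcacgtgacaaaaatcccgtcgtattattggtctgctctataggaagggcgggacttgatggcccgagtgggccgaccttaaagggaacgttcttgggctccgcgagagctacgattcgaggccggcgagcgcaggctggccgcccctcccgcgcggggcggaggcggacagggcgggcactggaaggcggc
Camk2d: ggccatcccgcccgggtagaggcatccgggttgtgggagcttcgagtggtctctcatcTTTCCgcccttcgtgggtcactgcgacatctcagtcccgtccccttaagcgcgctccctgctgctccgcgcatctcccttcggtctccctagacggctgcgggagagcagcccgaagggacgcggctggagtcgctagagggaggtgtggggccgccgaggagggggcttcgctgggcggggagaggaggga
Camk1: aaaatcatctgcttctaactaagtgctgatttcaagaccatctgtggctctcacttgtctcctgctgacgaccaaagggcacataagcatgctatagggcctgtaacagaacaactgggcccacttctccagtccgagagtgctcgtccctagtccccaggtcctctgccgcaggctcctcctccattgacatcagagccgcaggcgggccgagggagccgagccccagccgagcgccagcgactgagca
Nfatc3 first start: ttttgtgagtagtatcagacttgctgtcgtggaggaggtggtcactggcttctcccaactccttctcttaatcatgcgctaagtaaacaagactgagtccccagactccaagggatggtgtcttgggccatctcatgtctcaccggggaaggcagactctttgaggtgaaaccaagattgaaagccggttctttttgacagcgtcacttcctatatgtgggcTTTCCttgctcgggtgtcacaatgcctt
Nfatc3 second start: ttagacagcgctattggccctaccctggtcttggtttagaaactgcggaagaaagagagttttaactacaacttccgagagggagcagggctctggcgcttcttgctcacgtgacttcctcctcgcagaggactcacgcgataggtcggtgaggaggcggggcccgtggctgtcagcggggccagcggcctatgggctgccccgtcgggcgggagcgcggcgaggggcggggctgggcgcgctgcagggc

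The internal Rcan1 window held 3 NFAT cores and 1 cAMP response element, whose first base lies at -175 from the start. At least 3 cores were present in 6.38% of the 32817 mouse windows of this length, and the response element in 1.55%. Camk2d and the first Nfatc3 window each held 1 core, and at least 1 was present in 55.6% of all windows. Camk1, the upstream Rcan1 window and the second Nfatc3 window held 0 of either motif. Of the windows not printed, Ppp3cb held 3 cores and Camk2b held 0. These matches describe letters only, and the single Rcan1 cluster of the array does not separate transcripts of its alternative starts.

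Across all transcript clusters, the spread of log2 signals on an array (SD) was 2.08 to 2.15 in RT and 1.97 to 2.13 in RS. RS-4 and RS-6 had the smallest array spreads (1.97 and 1.99) and lay at 43.0 and 43.4 on the first principal component, against -30.8 to -9.55 for the RT arrays, while RS-1 at -4.74 lay nearest to RT. The tests of single genes and their counts were also run without these arrays and with array spread as a covariate. Markers of muscle fibers were bright and did not separate the groups (0 of 10 called, summed log2 level 15.6 to 15.7 in RT and 15.5 to 15.7 in RS).

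Camk2d, Nfatc3, Nfatc1 and Camk1 were higher in RT than in RS, and none of the 10 genes was lower. Calls needed p under 0.05 by limma before adjustment and under 0.1 after Benjamini-Hochberg adjustment over all clusters, the thresholds of the methods. By this rule 4 of the 10 genes were higher, where 11.9% of all clusters were called higher and 13.0% lower. Among the 5076 clusters whose mean signal lay within the range of these genes, 28.0% were higher and 5.95% lower, so the count stands closer to genes of like brightness than to the array as a whole. The median log2 change of the 10 genes was 0.17, against 0.145 for those 5076 clusters and -0.01 for all clusters. All 4 calls ended under a further quantile normalization, cyclic loess, the spread covariate, and when RS-4 and RS-6 were both left out. In the same order, the share of clusters of that signal range called higher was 12.4%, 11.8%, 4.00% and 10.6%. The share called lower was 10.7%, 11.6%, 3.59% and 4.69%, so calls were lost across the array as well. With RS-4 and RS-6 left out, the changes of Nfatc3, Nfatc1 and Camk1 were 0.23, 0.22 and 0.18, with fewer mice. With the spread covariate they were 0.15, 0.19 and 0.17. Under quantile normalization they were 0.18, 0.11 and 0.088, and under cyclic loess 0.18, 0.11 and 0.088.

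**Figure D1:**
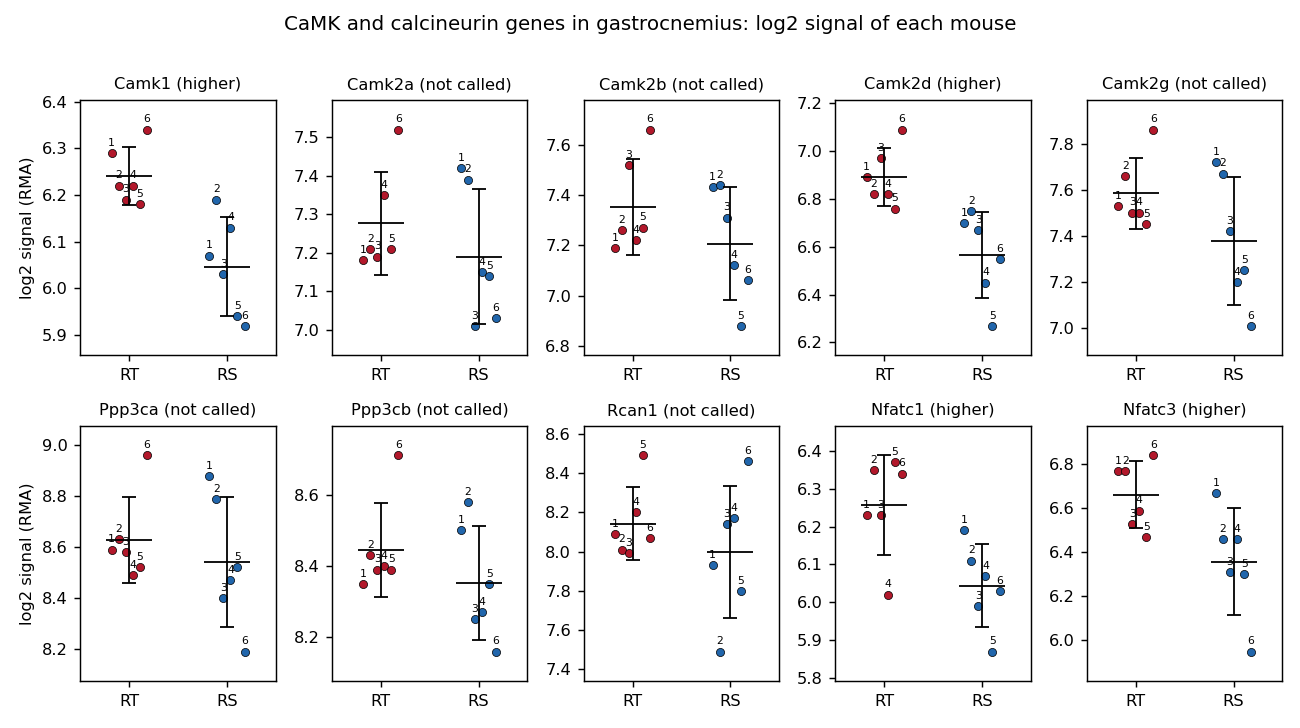
Log2 signal of each of the 10 genes (y axis, log2 units) in each mouse, with RT points left of RS points, mouse numbers beside the points, and bars for the mean and SD of 6 mice. The RT and RS points of Camk2d do not overlap (lowest RT 6.76, highest RS 6.75), whereas those of the other 9 genes do.

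The plot of signals by mouse shows that differences were small relative to the spread among mice for most genes, and that a few mice, RT-6 above all, were high in several panels. All 10 clusters were brighter than the median of the array.

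Among the CaMKII subunits, Camk2d, which encodes the δ subunit, changed most. Its log2 signal was 6.76 at the lowest, 6.855 at the median and 7.09 at the highest in RT, against 6.27, 6.61 and 6.75 in RS. Every RT mouse was above every RS mouse, as in 2.69% of all clusters and 7.17% of those within the signal range of the 10 genes (3.10% of all clusters had every RT mouse below every RS mouse). The gap was 0.01 (RT-5 and RS-2), and RS-5 and RS-4 (6.45) were the lowest. Means were 6.89 ± 0.12 in RT and 6.57 ± 0.18 in RS (SD, n = 6 each), a log2 change of 0.33 (SE 0.09) or 1.25-fold (limma, adjusted p = 0.0290; exact permutation p = 0.00216, the smallest that 924 splits allow). The call held without any single array (changes 0.27 to 0.36, adjusted p 0.0198 to 0.0705). It was lost under quantile normalization (0.19, adjusted p = 0.141), cyclic loess (0.19, adjusted p = 0.129), the spread covariate (0.24, adjusted p = 0.237) and on omission of both RS-4 and RS-6 (0.29, adjusted p = 0.103).

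The other CaMKII subunit genes had positive differences that did not pass the test. Camk2b, the β subunit, which is enriched in muscle and brain, had a log2 signal of 7.19, 7.265 and 7.66 (lowest, median and highest) in RT and 6.88, 7.215 and 7.44 in RS. Its change was 0.15 (95% interval -0.09 to 0.38; limma, adjusted p = 0.380), and RT-6 and RT-3 were high while RS-5 and RS-6 were low. Camk2g, the γ subunit, had 7.45, 7.515 and 7.86 in RT and 7.01, 7.335 and 7.72 in RS. Its change was 0.205 (-0.05 to 0.46, adjusted p = 0.240), the groups overlapped, and it was called only when RS-1 was left out (0.27, adjusted p = 0.0935). Camk2a, the α subunit and a mainly neuronal isoform that is also made in muscle, had 7.18, 7.21 and 7.52 in RT and 7.01, 7.145 and 7.42 in RS. Its change was 0.09 (-0.11 to 0.29, adjusted p = 0.546), with RS-1 and RS-2 above all RT mice but RT-6. Over the arrays left out in turn, it lay between 0.038 (without RT-6) and 0.133 (without RS-1).

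Camk1, the CaMKI kinase, was higher in RT by a small margin. It had 6.18, 6.22 and 6.34 in RT and 5.92, 6.05 and 6.19 in RS (lowest, median and highest log2 signal). Only RS-2 reached the range of the RT mice. Means were 6.24 ± 0.06 in RT and 6.05 ± 0.11 in RS (SD, n = 6 each), a log2 change of 0.19 (SE 0.07; limma, adjusted p = 0.0841; exact permutation p = 0.00649). With an adjusted p near the threshold, the call was lost without any one of RT-1, RT-2, RT-3, RT-4, RT-6, RS-3, RS-5 or RS-6, with changes of 0.17 to 0.22 and an adjusted p of up to 0.165 over the arrays left out.

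The calcineurin genes did not pass the test in either direction. Ppp3ca, the Aα catalytic subunit, had a log2 signal of 8.49, 8.585 and 8.96 in RT and 8.19, 8.495 and 8.88 in RS (lowest, median and highest). Its change was 0.09 (-0.16 to 0.33; limma, adjusted p = 0.629). Ppp3cb, the Aβ catalytic subunit, had 8.35, 8.395 and 8.71 in RT and 8.16, 8.31 and 8.58 in RS, with a change of 0.09 (-0.10 to 0.29, adjusted p = 0.497). In both genes RT-6 was highest and RS-6 lowest, and RS-1 and RS-2 lay above 5 of the 6 RT mice. Single mice moved both changes, as that of Ppp3ca was 0.016 without RS-6, 0.020 without RT-6 and 0.154 without RS-1, and that of Ppp3cb 0.040 without RT-6 and 0.139 without RS-2.

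Rcan1, the feedback inhibitor of calcineurin, varied more among mice than between groups. It had 7.99, 8.08 and 8.49 in RT and 7.49, 8.035 and 8.46 in RS. The highest mice were RT-5 and RS-6 and the lowest was RS-2, and all RT mice but RT-5 lay within the RS range. The change was 0.14 (-0.15 to 0.43; limma, adjusted p = 0.487; exact permutation p = 0.387). The change was 0.042 without RS-2 (adjusted p = 0.841), 0.074 without RT-5 (adjusted p = 0.736) and 0.24 without RS-6 (adjusted p = 0.228). It was 0.30 (95% interval 0.03 to 0.57, adjusted p = 0.162) with RS-4 and RS-6 omitted, 0.32 (adjusted p = 0.274) with the spread covariate, and near 0 under cyclic loess (0.0016, adjusted p = 0.997). It was not called under any of 24 alternatives.

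Both NFAT genes were higher in RT. Nfatc3 had a log2 signal of 6.47, 6.68 and 6.84 in RT and 5.95, 6.385 and 6.67 in RS (lowest, median and highest). All RS mice but RS-1 were below every RT mouse, and RS-6 was far the lowest. Means were 6.66 ± 0.15 in RT and 6.36 ± 0.24 in RS (SD, n = 6 each), a log2 change of 0.30 (SE 0.11; limma, adjusted p = 0.0696; exact permutation p = 0.0238). The call was lost without any one of RT-1, RT-2, RT-6, RS-5 or RS-6, with changes of 0.22 to 0.37 and an adjusted p of up to 0.145 over the arrays left out.

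Nfatc1, known in muscle as a sensor of slow-nerve activity, had 6.02, 6.285 and 6.37 in RT and 5.87, 6.05 and 6.19 in RS. All RT mice but RT-4 were above every RS mouse, and RT-4 lay within the RS range. Means were 6.26 ± 0.13 in RT and 6.04 ± 0.11 in RS (SD, n = 6 each), a log2 change of 0.21 (SE 0.08; limma, adjusted p = 0.0882; exact permutation p = 0.0195). The call was lost without any one of RT-1, RT-2, RT-3, RT-5, RT-6, RS-3, RS-4, RS-5 or RS-6, with changes of 0.18 to 0.26 and an adjusted p of up to 0.174 over the arrays left out.

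**Figure D2:**
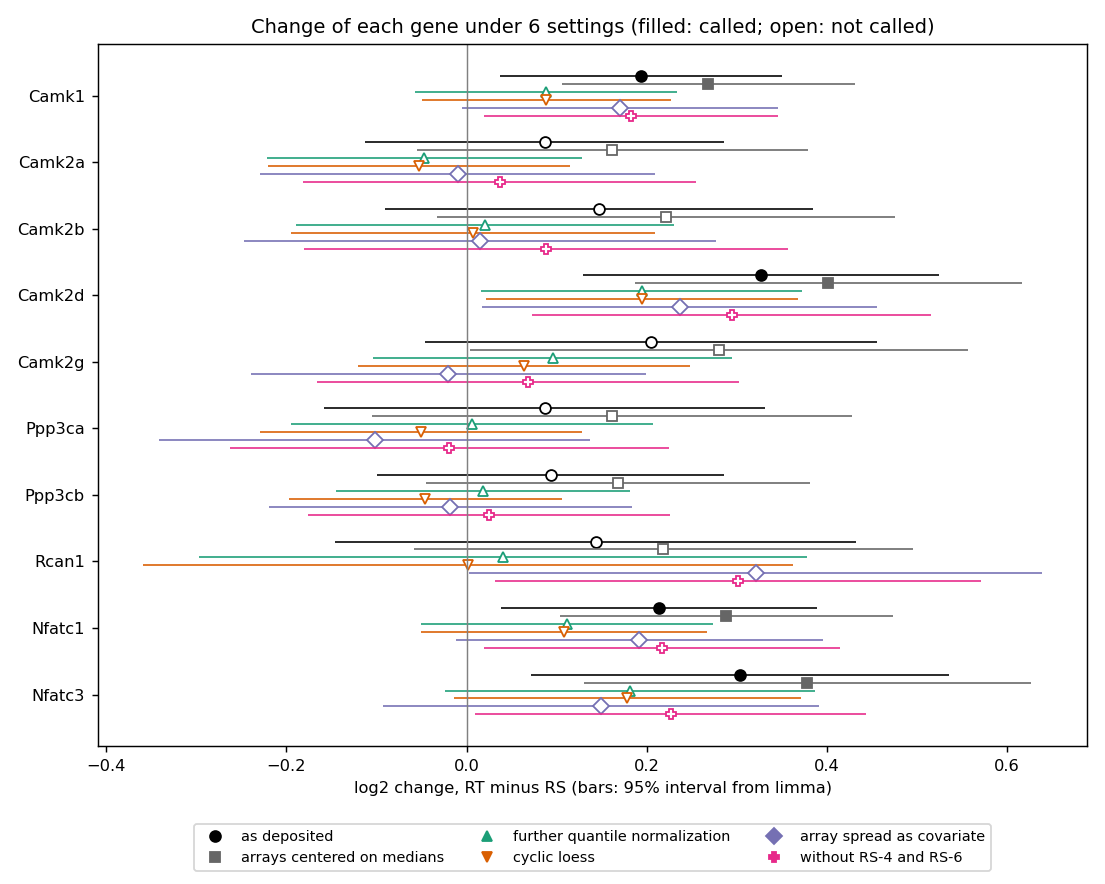
Log2 change of each gene (x axis, RT minus RS, with its 95% interval from limma) under 6 settings, filled where the gene was called. The change of Camk2d stays above 0 under all 6 (0.19 to 0.40) but is called under 2 of them, and Camk2a, Camk2g, Ppp3ca and Ppp3cb cross 0 under 1 to 3 settings.

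The plot of changes by setting shows that centering each array on its median moved all 10 changes up and that quantile normalization and cyclic loess moved them down. The median change of the 10 genes was 0.245, 0.06 and 0.04 under these settings. Over 24 alternatives, Camk2d was called in 20, Nfatc3 in 13, Camk1 in 9, Nfatc1 in 8 and Camk2g in 1, always as higher in RT.

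Paralogs were compared within arrays, so that a shift shared by a pair of genes cancels. Over 8 pairs, Camk2d exceeded Camk2b in its change by most relative to error: the Camk2b minus Camk2d difference was 0.46 ± 0.10 in RT and 0.64 ± 0.08 in RS (SD, n = 6 each), a difference of -0.18 (95% interval -0.30 to -0.06; exact permutation p = 0.0108, adjusted p = 0.0864 over the 8 pairs). For Camk2a minus Camk2d the difference was -0.24 (-0.44 to -0.04; exact permutation p = 0.0303, adjusted p = 0.121). Pairs were held to an adjusted p of 0.05, stricter than the rule for genes, and none passed except Camk2b and Camk2d under cyclic loess (-0.19, adjusted p = 0.0346) and without RS-6 (-0.21, adjusted p = 0.0346). The calcineurin subunits Ppp3ca and Ppp3cb had a difference of -0.01 (-0.12 to 0.11; exact permutation p = 0.935), and Nfatc1 and Nfatc3 one of -0.09 (-0.33 to 0.15; exact permutation p = 0.463). The other 4 pairs, all of CaMKII subunits, had adjusted p of 0.467 to 0.635.

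**Figure D3:**
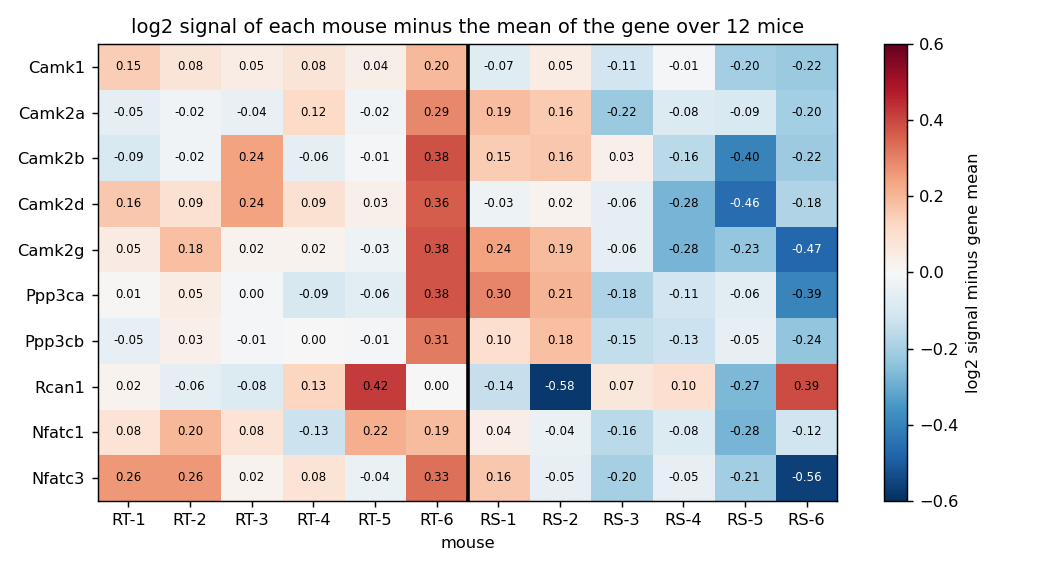
Log2 signal of each gene (rows) in each mouse (columns, RT left of RS) minus the mean of that gene over the 12 mice, in log2 units by color. RT-6 is above the mean in 9 of the 10 genes and RS-5 in 0, and in RS-6 only Rcan1 is.

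Individual mice moved most of the genes together. The mean of the 10 genes, each centered on its own mean, was 0.02 to 0.28 in RT, with RT-6 highest, and -0.23 to 0.09 in RS, with RS-5 and RS-6 lowest and RS-1 highest. After the group means were removed, 10 of 45 correlations among the genes over the 12 arrays had an adjusted p under 0.05 by Pearson's r and 4 by Spearman's rho (permutation test, 100000 resamples, Benjamini-Hochberg over 45). By Pearson's r, the catalytic subunits Ppp3ca and Ppp3cb went together most closely (r = 0.95, permutation adjusted p = 0.0116; rho = 0.85, adjusted p = 0.0434; r = 0.93 without RS-1 and RT-6). By Spearman's rho, Camk2a and Ppp3cb did (rho = 0.87, permutation adjusted p = 0.032; r = 0.92, adjusted p = 0.012). Camk2b and Camk2d had r = 0.92 (permutation adjusted p = 0.0116; r = 0.87 without RT-6 and RS-2) but a rho of 0.75 that did not pass (adjusted p = 0.0878). Nfatc3 went with Ppp3ca (r = 0.84, permutation adjusted p = 0.0116; rho = 0.80, adjusted p = 0.036; r = 0.76 without RS-1 and RT-6). Rcan1 ran the other way, with r = -0.68 to Ppp3ca (permutation adjusted p = 0.0832; rho = -0.72, adjusted p = 0.109; r = -0.90 without RS-1 and RT-6), which did not pass. These arrays share the spread and component differences given above, whose part in the correlations was not tested.

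Of the genes on the array, those most like Camk2d over the 12 arrays were Insig2 (r = 0.97), Slain2 (0.95), Galnt1 (0.94), Smarca4 (0.94) and Zdhhc8 (0.94). With the group means removed, the most alike were Insig2 (0.93), Dhrs1 (0.92), Camk2b (0.92), Polr2m (0.91) and Rpl8 (0.90). Its sister subunit gene was thus among the 5 nearest by the spread within groups alone.

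The wider pathway was described by 5 lists of 64 measured genes, of which 18 were higher and 3 lower in RT. Over all clusters, 11.9% were higher and 13.0% lower. Among clusters within the signal range of the 10 genes, the shares were 28.0% and 5.95%. The calmodulin and CaMK list had a median change of -0.05, with 1 of 10 higher and 2 lower. Calm2, which encodes calmodulin, was higher by 0.33 (limma, adjusted p = 0.0656) by its brighter cluster but not by its other (0.045), and Calm3 had 0.20 (adjusted p = 0.197). Camk2n2, an inhibitor of CaMKII, fell by 0.35 (adjusted p = 0.0502). Its paralog Camk2n1 was brighter (mean log2 signal 6.20, against 4.945) and was not called (0.12, adjusted p = 0.357). Camkv, a kinase-like protein of neurons and dimmer than both, fell by 0.26 (adjusted p = 0.0614).

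Among 14 further calcineurin genes, 4 were higher and 1 lower (median change 0.14). Ppp3cc, a further catalytic subunit gene, was higher by 0.22 (limma, adjusted p = 0.0899), and the calcineurin-like EF-hand proteins Chp1 and Chp2 by 0.29 (adjusted p = 0.0677) and 0.41 (adjusted p = 0.0181). Chp2 had a mean log2 signal of 4.48, near the median of the arrays. Ppia, cyclophilin A, was higher by 0.47 (adjusted p = 0.0395) and all 7 of its clusters were called, though near-identical copies of this gene make its clusters uncertain. The regulatory B subunit gene Ppp3r1 had 7.27 ± 0.07 in RT and 7.10 ± 0.25 in RS (SD, n = 6 each), a change of 0.165 (limma, adjusted p = 0.281) that did not pass. Its testis paralog Ppp3r2, with a mean log2 signal of only 2.26, fell by 0.27 (adjusted p = 0.0606).

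Among NFAT relatives and the kinases that return NFAT to the cytosol, 4 of 10 were higher and 0 lower (median change 0.22). The kinase genes Gsk3a, Dyrk1a and Csnk1a1 were higher by 0.32 (limma, adjusted p = 0.0274), 0.26 (adjusted p = 0.0649) and 0.24 (adjusted p = 0.0848), although the dimmer of the 2 Dyrk1a clusters had -0.23 (adjusted p = 0.134). Nfatc2ip, an NFAT-interacting protein with a mean log2 signal of 4.47, near the median of the arrays, was higher by 0.24 (adjusted p = 0.0973).

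The list of targets and effectors in muscle held the most calls, 7 of 14 higher and 0 lower (median change 0.21). These counts stand beside 11.9% higher and 13.0% lower over all clusters. Within the signal range of the 10 genes, 28.0% of clusters were higher and 5.95% lower, and all 14 targets were above the median of the arrays. Mef2a, a transcription factor that both CaMK and calcineurin act on, was higher by 0.46 (limma, adjusted p = 0.00963), and Mef2d by 0.28 (adjusted p = 0.0268). Creb1, the CREB factor, had 6.34, 6.41 and 6.49 in RT and 6.07, 6.085 and 6.21 in RS (lowest, median and highest), so that the groups did not overlap (change 0.30, adjusted p = 0.0106). Its coactivators Crtc2 and Crtc3, which calcineurin dephosphorylates, were higher by 0.35 (adjusted p = 0.00876) and 0.39 (adjusted p = 0.0276), and the groups did not overlap for Crtc2. Every RT mouse was above every RS mouse in 2.69% of all clusters and in 7.17% of those within the signal range of the 10 genes. Slc2a4, the insulin- and contraction-responsive glucose transporter, was higher by 0.32 (adjusted p = 0.0662), and the smallest called change was that of Mef2c (0.27, adjusted p = 0.0757). Ppargc1a, the coactivator of mitochondrial genes, had 7.50 ± 0.07 in RT and 8.01 ± 0.97 in RS (SD, n = 6 each) and was not called (-0.51, adjusted p = 0.267). RS-5 and RS-6 stood at 9.25 and 9.17, whereas the other RS mice, at 6.90 to 7.78, spanned the RT range of 7.41 to 7.59.

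Of 16 calcium entry and release genes, 2 were higher and 0 lower (median change 0.12). Sln, sarcolipin, an inhibitor of the calcium pump, was dim but did not overlap between groups (4.13 at the lowest and 4.53 at the highest in RT, against 3.51 and 4.04 in RS; change 0.475, limma adjusted p = 0.0088). Over all clusters, 2.69% had every RT mouse above every RS mouse. Trpc1, a calcium entry channel, was higher by 0.38 (adjusted p = 0.0760). It was dimmer still (mean log2 signal 3.88, against 4.06 for Sln), and its groups overlapped (3.51 to 4.44 in RT and 3.42 to 4.07 in RS).

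**Figure D4:**
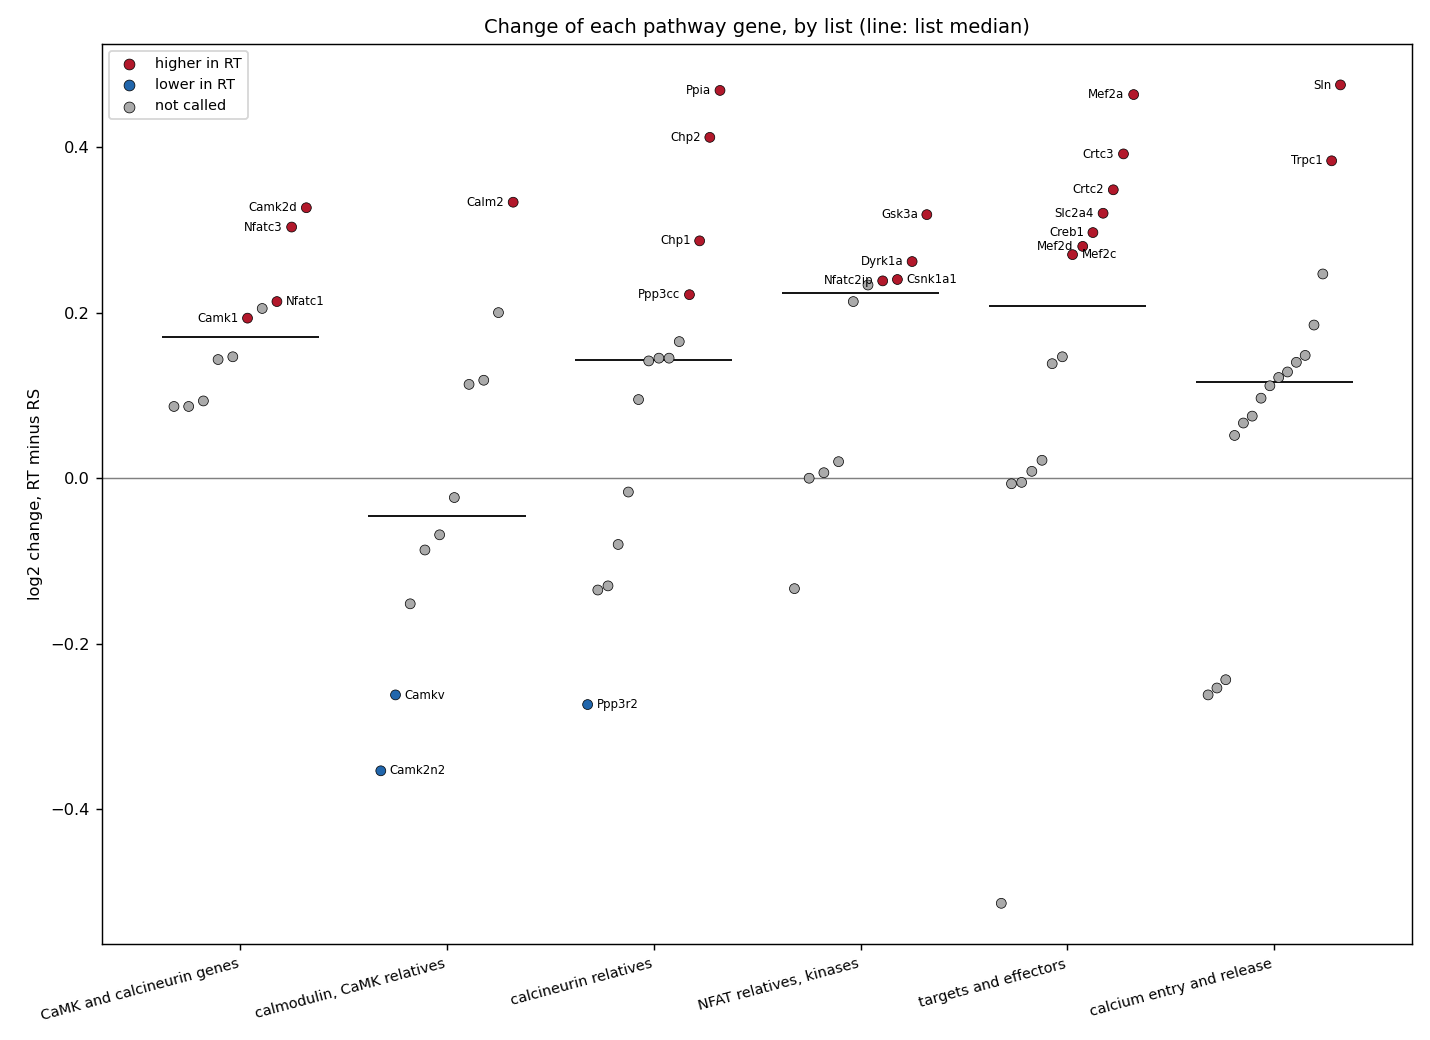
Log2 change (y axis, RT minus RS) of every measured gene of the 10-gene set and of the 5 pathway lists, with called genes in red (higher) or blue (lower), the others in gray, and a line at the median of each list. Medians run between -0.05 for calmodulin and CaMK relatives and 0.22 for NFAT relatives and kinases, and the highest points are Sln, Ppia and Mef2a.

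The plot of pathway changes shows that the lists overlap widely. Their counts stand beside 11.9% higher and 13.0% lower over all clusters, and no share was computed for clusters of the brightness of each list. Brightness differed between lists, as 6 of 10 calmodulin and CaMK relatives and 14 of 14 targets were above the median of the arrays.

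Of 10 slow-twitch fiber markers, genes that calcineurin and NFAT are known to favor, 0 were higher and 1 lower (Myh7b, -0.42, limma adjusted p = 0.0540), where 11.9% of all clusters were higher and 13.0% lower. Their median change was -0.37, with summed log2 levels of 10.5 to 12.8 in RT and 11.4 to 13.2 in RS. Single mice stood far apart. For Atp2a2, Myoz2 and Casq2, RT-6 was the lowest RT mouse (7.79, 8.04 and 5.47, with the next at 9.12, 8.70 and 5.68). RS-2 was the lowest RS mouse for Atp2a2 and Myoz2 (8.63 and 7.76). The part of these mice in the median change was not tested. Of 12 fast-twitch markers 0 were called (median change 0.07).

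Markers of other cell types in the muscle moved with the groups, where 11.9% of all clusters were higher and 13.0% lower. Of fibroblast and matrix markers 10 of 11 were higher (median change 0.78, summed log2 level 12.3 to 12.6 in RT and 11.3 to 12.3 in RS), and of macrophage markers 10 of 12 (0.795, 9.32 to 9.84 in RT and 8.38 to 9.18 in RS). Endothelial markers were higher in 7 of 12 (0.48, 10.4 to 10.8 in RT and 9.99 to 10.4 in RS), smooth muscle and pericyte markers in 5 of 8 (0.39, 10.3 to 10.6 in RT and 9.70 to 10.3 in RS) and adipocyte markers in 4 of 8 (0.36, 9.59 to 9.98 in RT and 9.16 to 9.67 in RS). Lymphocyte markers were higher in 0 of 10 and lower in 2, and 0 of the 10 were brighter than the array median. Markers of neurons and Schwann cells were higher in 2 of 10 and lower in 2. In whole muscle, more cells of a type and more RNA per cell cannot be told apart, and the part of these cell types in the changes of Camk2d, Camk1, Nfatc1 and Nfatc3 was not tested.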

How the data were processed

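The deposited table holds log2 signals of 28944 transcript clusters on 12 Affymetrix Mouse Gene 1.0 ST arrays, which the authors normalized. Their methods name RMA in Expression Console 1.3.0.187 in one place and SST-RMA in Transcriptome Analysis Console 4.0 in another; the genome build is not given in the sources used here. Values ran between 0.53 and 13.67, and the number of arrays limits the precision. Symbols came from the platform annotation (21789 clusters with 1 symbol, 1621 with several, 5534 with none). Of the clusters, 476 repeated the values of an earlier one.

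RT was compared with RS, groups taken from the sample labels, with limma 3.58.1 (lmFit, eBayes; R 4.3.3) over all clusters, two-sided with no covariate, and every adjusted p of a single gene is from limma with Benjamini-Hochberg adjustment. The fit was tested on simulated data. Single genes and paralog pairs were also tested by an exact two-sided permutation over all 924 splits. The brightest cluster stood for a gene. The text names all 10 genes, up to 6 called genes per list and direction by size, the calmodulin genes, Ppp3r1, and the 5 genes most like Camk2d. Mef2c, Ppargc1a, Camk2n1, Atp2a2, Myoz2 and Casq2 were named after their values were seen. Some listed genes are not reported here. The genes, lists and tests were chosen with earlier results of these data known.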

Additional observations from a re-analysis of the deposited data

Results flagged for a closer look

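In 2 of the 20 sets of 6 mice tested (10 genes in each group), the highest mouse stood apart from the others by more than Dixon's 95% critical value of 0.625 for 6 samples, and both were RT-6. Its Ppp3ca signal was 8.96, where the next RT mouse had 8.63 (gap over range 0.702), and its Ppp3cb signal was 8.71, where the next had 8.43 (0.778). Chance flags about 1 in 20 such sets. The sets share the same mice, and Ppp3ca and Ppp3cb went together within groups (r = 0.95), so the 2 flags are not independent. RT-6 also had the largest array spread (2.15), whose part in these values was not tested. Without RT-6, 1 of the 10 genes was called higher, as it was without RT-1, RT-2, RS-5 or RS-6. Of all clusters, 8.15% (without RT-6) to 9.06% (without RS-5) were higher in these fits.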

How the results depend on the processing

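The count of 4 genes higher and 0 lower became 0 and 0 under further quantile normalization, cyclic loess, array spread as a covariate, and without RS-4 and RS-6. It was 1 higher at an adjusted p under 0.05, and 1 to 5 when each array was left out. Of clusters within the signal range of the 10 genes, 17.5% were higher at an adjusted p under 0.05. With each array left out, 18.4% (without RT-6) to 38.7% (without RS-1) of these clusters were higher. The pathway count of 18 higher and 3 lower became 9 and 2 under cyclic loess, 15 and 1 under quantile normalization, and 24 and 1 under centering on array medians. It was 5 and 0 with array spread, 8 and 1 without RS-4 and RS-6, and 9 and 0 at an adjusted p under 0.05. When each array was left out, 10 to 20 were higher and 0 to 5 lower. Without RS-1, RS-4 and RS-6, a setting added after seeing the data, 2 of the 10 genes were higher (Camk2d, adjusted p = 0.0983; Nfatc3, adjusted p = 0.0862) and 10 pathway genes. The methods' one-way test called 3 of the 10 genes higher (all but Nfatc3), with 2928 clusters higher and 3039 lower. Paralog pairs that differed at an adjusted p under 0.05 numbered 0 (1, Camk2b and Camk2d, at the threshold of 0.1 used for genes), 1 under cyclic loess, and 0 to 1 when each array was left out.

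Signs turned, with none of these genes called, for Camk2a (-0.047 under quantile normalization, -0.053 under cyclic loess, -0.0099 with array spread), Camk2g (-0.020 with array spread), Ppp3ca (-0.050 under cyclic loess, -0.10 with array spread, -0.019 without RS-4 and RS-6) and Ppp3cb (-0.046 under cyclic loess, -0.018 with array spread). Of 250 values of the 10 changes, 25 per gene, 194 kept sign and call, 46 kept the sign and lost the call, 1 gained a call and 9 changed sign. Each gene had 24 alternatives that could differ, and its 25th value could not, so the 194 include values that were bound to stay. The lost calls were those of Nfatc1 (16 of the 24 alternatives), Camk1 (15), Nfatc3 (11) and Camk2d (4). The cause of these changes of sign and call was not tested. The mean of all clusters of a gene changes nothing, as each gene has 1.

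Over all clusters, 3445 were higher and 3764 lower. Quantile normalization gave 2785 and 2757, and cyclic loess 2770 and 2816. With each array left out, 2360 (without RT-6) to 4573 (without RS-1) were higher. Centering gave 5883 and 2414, array spread 732 and 888, omission of RS-4 and RS-6 1649 and 1791, that of RS-1 too 1968 and 2059, and an adjusted p under 0.05 2092 and 2307.

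RT and RS arrays of the same replicate number did not deviate together (correlations -0.24 to 0.11, and 1 RT and 0 RS mice closest to their own number), so the numbers were not taken as pairs. With the replicate number as a block, 2 genes were called higher (Camk2d, adjusted p = 0.0413; Nfatc3, adjusted p = 0.0898), with Camk1 at 0.161 and Nfatc1 at 0.153, and 13 pathway genes were higher and 3 lower.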
